A study of Mus musculus with 2 samples.

Results

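The genes here encode or help build the complexes of oxidative phosphorylation, the process by which mitochondria turn the oxidation of food molecules into ATP. They were chosen by their symbols: names that begin with Ndufa, Ndufb, Ndufc, Ndufs, Ndufv, Sdha, Sdhb, Sdhc, Sdhd, Uqcr, Cox4i, Cox5, Cox6, Cox7, Cox8 or Atp5 for genes of the nuclear genome, and mt-Nd, mt-Co, mt-Atp or mt-Cytb for genes of the mitochondrial genome, without pseudogenes and without the Ndufaf assembly factors. The rule took 102 of the 32285 genes counted, 89 nuclear and 13 mitochondrial, and all of them are annotated as protein coding. The rule uses symbols alone, so it also took 4 assembly factors of complex II, Sdhaf1 to Sdhaf4, which are not subunits. A UMI (unique molecular identifier, the tag that marks 1 captured transcript) was found for 100 of the 102 genes in each library.

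The study profiled single CD45+ cells, the leukocytes, that were sorted by flow cytometry from tumours of C57BL/6 mice, with 1 library from WT and 1 from Ythdf2 KO tumours. Ythdf2 encodes a protein that binds m6A, a methylated base of mRNA, and promotes the decay of the transcripts that carry it. The labels name knockout tumours and the design text names conditional knockout mice, so the cells that lost Ythdf2, any driver of the deletion and the number of animals are not given in the sources used here. Each genotype is therefore 1 library, no difference between them has a replicate check, and the 95% intervals below cover counting error only.

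Complex I oxidises NADH, complex II oxidises succinate, complex III passes their electrons from ubiquinol to cytochrome c, and complex IV hands them to oxygen. Complexes I, III and IV pump protons across the inner mitochondrial membrane, and complex V, the ATP synthase, uses the returning protons to make ATP. All but complex II are built from subunits of both genomes, and macrophages, neutrophils and lymphocytes are known to differ in how much they rely on this pathway and on glycolysis.

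The start-site motifs of NRF1 and YY1, which the rule did not use, were more frequent in the nuclear genes than in all genes. The ETS motif was nearer to the share of all genes. Most of the nuclear genes with a promoter window held none of the 3. Promoter windows of 300 bases, from 250 before to 50 after the start, were matched in RefSeq (GRCm38.p6) for 72 of the 89 nuclear genes. Each was searched on both strands for 3 motifs known from promoters of respiratory genes: CCGGAAGT for ETS factors, GCGCA and GCGC with any base between them for NRF1, and AAGATGGCG for YY1. The NRF1 motif was in 19 of the 72 windows (26.4%), against 5.19% of the 27025 genes with a window. The YY1 motif was in 7 (9.72%, against 1.64%) and the ETS motif in 5 (6.94%, against 4.31%). At least 1 of the motifs was in 29 windows (40.3%, against 10.3% of all genes). The NRF1 motif was spread unevenly over the complexes, with 7 of 32 windows of complex I, 2 of 3 of complex II, 6 of 14 of complex V and 1 of 14 of complex IV. The windows were also richer in G and C (median 58.5%) than those of all genes (53.3%), and a match is a description of letters, not a measured binding site. The following 4 windows are printed 5′ to 3′ on the gene's strand with the motifs in capitals: for each motif the gene with the highest level in monocytes and macrophages that holds it, and Ndufa4, the gene with the highest Ythdf2 KO to WT ratio there among genes with a window, which holds none of the 3. Cox8a (chr19:7217567-7217866, minus strand) holds the ETS motif at 2 positions, Atp5h (chr11:115419870-115420169, minus strand) an NRF1 and an ETS motif, and Atp5j2 (chr5:145191492-145191791, minus strand) the YY1 motif close to its start. Ndufa4 lies at chr6:11907401-11907700 on the minus strand.
Cox8a: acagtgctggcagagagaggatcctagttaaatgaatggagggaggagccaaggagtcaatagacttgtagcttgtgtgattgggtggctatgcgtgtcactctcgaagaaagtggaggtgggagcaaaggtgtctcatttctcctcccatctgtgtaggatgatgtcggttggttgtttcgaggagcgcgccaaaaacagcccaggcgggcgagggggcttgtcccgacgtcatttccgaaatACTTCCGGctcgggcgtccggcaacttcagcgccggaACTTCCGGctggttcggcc
Atp5h: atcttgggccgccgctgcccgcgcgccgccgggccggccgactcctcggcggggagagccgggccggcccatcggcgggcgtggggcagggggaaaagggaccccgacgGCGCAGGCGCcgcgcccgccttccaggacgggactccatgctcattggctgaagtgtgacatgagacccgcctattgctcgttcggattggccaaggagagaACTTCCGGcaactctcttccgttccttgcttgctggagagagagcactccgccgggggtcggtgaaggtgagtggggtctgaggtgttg
Atp5j2: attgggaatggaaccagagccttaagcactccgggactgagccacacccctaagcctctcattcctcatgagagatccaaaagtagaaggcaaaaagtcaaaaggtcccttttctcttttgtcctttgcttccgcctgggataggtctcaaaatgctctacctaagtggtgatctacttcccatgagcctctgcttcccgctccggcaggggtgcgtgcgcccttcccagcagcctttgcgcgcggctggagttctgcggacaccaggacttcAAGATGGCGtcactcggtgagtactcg
Ndufa4: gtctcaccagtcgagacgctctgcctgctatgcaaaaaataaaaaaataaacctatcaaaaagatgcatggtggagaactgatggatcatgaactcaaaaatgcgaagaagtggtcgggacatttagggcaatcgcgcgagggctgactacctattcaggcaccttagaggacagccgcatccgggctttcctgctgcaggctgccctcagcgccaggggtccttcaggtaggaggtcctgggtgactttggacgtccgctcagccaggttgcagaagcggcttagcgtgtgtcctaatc

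The WT library held 20886 barcodes and 168912853 UMIs, and the Ythdf2 KO library 16312 barcodes and 134066610 UMIs, with medians of 5554 and 5617 UMIs per barcode. After filtering, 14760 WT and 11545 Ythdf2 KO barcodes passed the marker gate of a cell type, 72.3% and 72.9% of those kept. The libraries had 101 barcode sequences in common. The transcript of Ythdf2 itself was close to equal between the libraries in monocytes and macrophages and in NK cells. Its level in monocytes and macrophages was 42.1 CPM (UMIs scaled to a class total of 1000000) in WT and 41.5 in Ythdf2 KO, a ratio of 0.987 (0.930 to 1.05), and in NK cells the ratio was 0.989. In T cells it was 61.5 and 45.5 CPM, a ratio of 0.739 (0.585 to 0.932), and in neutrophils 8.87 and 22.3 CPM (12 and 50 UMIs), a ratio of 2.51 (1.32 to 5.18). The Ythdf2 transcript therefore does not check the label, and Ythdf2 KO below means the library that carries that label. Malat1, a nuclear RNA, was lower in the Ythdf2 KO library in monocytes and macrophages (ratio 0.783) and in T cells (0.790), and 0.897 times as high in NK cells. The part of this difference in the results below was not tested.

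Gates were built from marker genes, none of which is an oxidative phosphorylation gene, and 8 classes with at least 50 barcodes in each library were compared. The largest were monocytes and macrophages (10578 WT and 8048 Ythdf2 KO barcodes), NK cells (2086 and 1195), T cells (655 and 518) and neutrophils (590 and 1000). Mature dendritic cells (DCs; 507 and 264), B cells (123 and 299), type 2 conventional DCs (cDC2; 111 and 54) and plasmacytoid DCs (60 and 97) were smaller. The gates require markers of the class, so the shares of barcodes with a marker describe the gate and are no independent check of it. Klre1 had a UMI in 89.9% of WT and 88.9% of Ythdf2 KO NK cells, Cd3d in 88.4% and 90.2% of T cells, and Siglech in 96.7% and 97.9% of plasmacytoid DCs.

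Neutrophils had the lowest share of UMIs from the nuclear genes, and NK cells and plasmacytoid DCs the highest. In neutrophils the 89 genes together took 0.74% of UMIs in WT and 0.90% in Ythdf2 KO. B cells followed with 1.46% and 1.59%, mature DCs with 1.74% and 1.85%, monocytes and macrophages with 1.94% and 2.15%, cDC2 with 2.10% and 2.14%, and T cells with 2.20% and 2.35%. Plasmacytoid DCs took 2.28% and 2.63%, and NK cells 2.40% and 2.38%. A pair of classes was set apart where the levels differed at least 1.5-fold in the same direction in both libraries, which held for 8 of 28 pairs. These were neutrophils against each of the 7 other classes, and B cells against plasmacytoid DCs. No other neighbours in this order were set apart. These shares, and those of the mitochondrial genes below, are of all UMIs and so depend on the other transcripts of a class. Cytosolic ribosomal proteins took from 4.5% to 32.7% of UMIs over the classes in WT, and from 6.1% to 33.1% in Ythdf2 KO.

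The 13 mitochondrial genes gave a different order. B cells had the highest share, 2.57% of UMIs in WT and 2.76% in Ythdf2 KO, followed by plasmacytoid DCs with 2.19% and 2.26%. Mature DCs had the lowest, 0.64% and 1.02%. T cells (1.63% and 1.63%), NK cells (1.57% and 1.41%), monocytes and macrophages (1.49% and 1.43%) and cDC2 (1.15% and 1.14%) lay between, and neutrophils took 1.12% and 1.82%. At least 1.5-fold in both libraries separated 10 of the 28 pairs, among them B cells from every class but plasmacytoid DCs. The ratio of mitochondrial to nuclear UMIs ran from 0.367 to 1.77 over the classes in WT and from 0.535 to 2.02 in Ythdf2 KO. Barcodes over 10% mitochondrial UMIs had been left out, a filter that uses these 13 genes, so their levels are bounded by it.

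**Figure D1:**
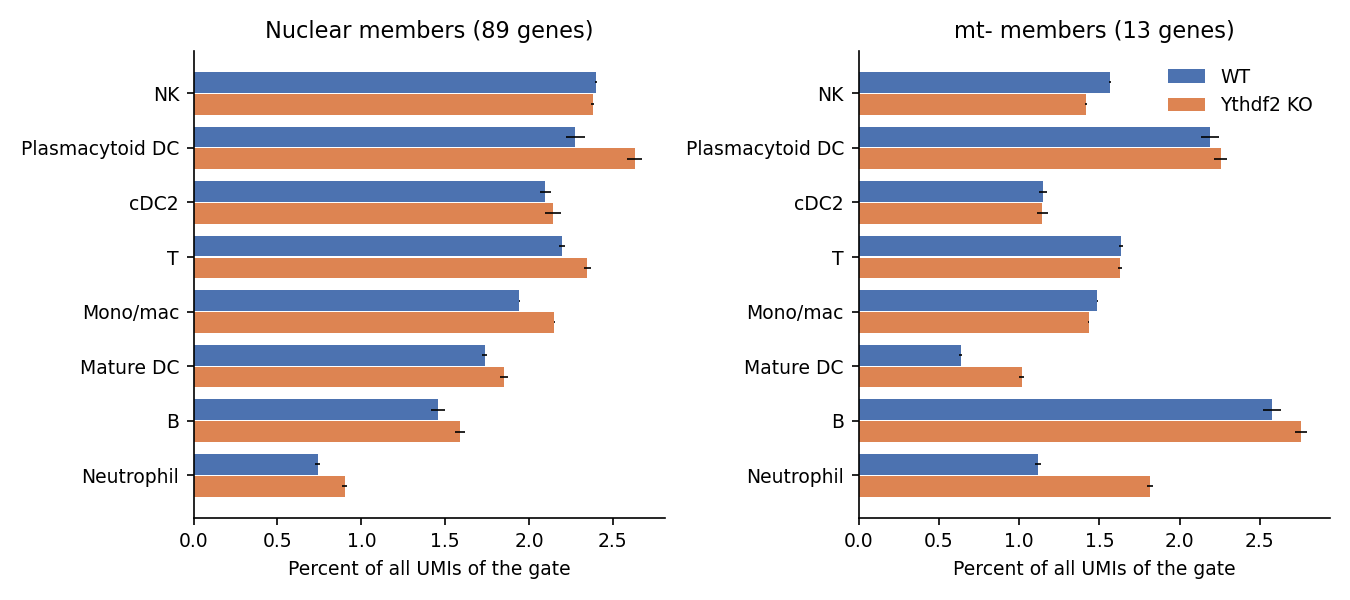
Share of all UMIs of a class (percent, x axis) from the 89 nuclear genes (left) and the 13 mitochondrial genes (right) in 8 gated classes, with WT in blue and Ythdf2 KO in orange; bars are summed counts of 1 library and lines exact Poisson 95% intervals, which cover counting error only. Neutrophils lie lowest for the nuclear genes (0.74% and 0.90%) and B cells highest for the mitochondrial genes (2.57% and 2.76%).

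Gene by gene against monocytes and macrophages, the neutrophil difference ran through nearly every nuclear gene. Of 85 nuclear genes tested (at least 50 UMIs in all), 78 were at least 1.5-fold lower in neutrophils in both libraries, where 50.5% of all genes were. Cox4i1, a core regulatory subunit of complex IV, was at 356 CPM in WT neutrophils against 923 in WT monocytes and macrophages, and at 443 against 1039 in Ythdf2 KO. Ndufb8, a subunit of the membrane arm of complex I, was at 48.8 against 208 CPM and at 70.8 against 259. None of the 13 mitochondrial genes was past 1.5-fold in both libraries in either direction (all genes higher, 9.17%). Neutrophil barcodes were shallow, with medians of 1989.5 UMIs in WT and 1777.5 in Ythdf2 KO. At 500 to 2000 UMIs the nuclear sum was 7248 CPM in WT neutrophils and 14591 in WT monocytes and macrophages. In Ythdf2 KO it was 6931 and 17291 CPM. How far depth enters the single-gene differences was not tested.

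In B cells the nuclear genes were lower about as often as all genes, and most mitochondrial genes were higher. Of the nuclear genes, 29 of 85 were at least 1.5-fold lower than in monocytes and macrophages (all genes, 29.1%) and 4 were higher (all genes, 18.5%), namely Sdhaf3, Sdhaf1, Sdha and Cox7a2l. Sdhaf3 had only 4 and 11 UMIs in WT and Ythdf2 KO B cells and Sdhaf1 9 and 47, so their levels there are uncertain. Of the mitochondrial genes, 11 of 13 were higher, against the same 18.5% of all genes. The largest were mt-Nd2, a core subunit of complex I, with a fold of 3.32 in WT and 4.04 in Ythdf2 KO, and mt-Nd3 with 3.17 and 3.94. mt-Co1, the catalytic subunit of complex IV, was 1.27 and 1.35 times as high. B cell barcodes were shallow, with medians of 2009 and 1958 UMIs in WT and Ythdf2 KO, against 4748.5 and 5354 in monocytes and macrophages. WT monocytes and macrophages of 500 to 2000 UMIs summed to 14591 nuclear and 24148 mitochondrial CPM, and WT B cells to 14575 and 25728. In Ythdf2 KO these sums were 17291 and 23165, against 15859 and 27561 in B cells. How far depth enters the B cell differences was not tested.

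Fewer genes separated the other classes from monocytes and macrophages. In NK cells 7 of 85 nuclear genes were higher (all genes, 27.5%), among them Atp5b, the catalytic subunit of the ATP synthase (1.87-fold and 1.62-fold), and 4 were lower (all genes, 30.0%), each a tissue-restricted complex IV isoform. In T cells 5 were higher (all genes, 26.8%), in plasmacytoid DCs 5 (all genes, 19.8%) and in cDC2 3 (all genes, 8.36%), and 12 were lower in mature DCs (all genes, 25.5%). Sdhaf1, an assembly factor that helps insert the iron-sulphur clusters of complex II, was the only nuclear gene at least 1.5-fold higher in mature DCs (all genes, 15.3%), by 10.7-fold in WT and 6.24-fold in Ythdf2 KO. Genes listed with a lower level include some with no UMI in a class.

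In monocytes and macrophages most nuclear genes were slightly higher in the Ythdf2 KO library and most mitochondrial genes slightly lower. The 89 nuclear genes summed to 19421 CPM in WT and 21509 in Ythdf2 KO, a ratio of 1.11 (1.10 to 1.11), and the 13 mitochondrial genes to 14858 and 14336, a ratio of 0.965 (0.962 to 0.968). Of 86 nuclear genes tested, 76 had a ratio above 1, where 41.4% of 12535 genes did, and their median log2 ratio was 0.16, against -0.05 for all genes tested. The counting interval lay above 1 for 71 of the 86, below 1 for 5 and held 1 for 10. A single nuclear gene, Cox4i2, was past 1.5-fold in either direction, where 7.59% of all genes were. The cytosolic ribosomal proteins, a set of abundant transcripts of another pathway, were also higher here, with a median of 0.12 and 70 of 85 above 1. Their part in the result was not tested.

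Each complex showed the same direction. Of complex I, 35 of 36 nuclear genes had a ratio above 1 (median 0.16), and the complex summed to 5265 CPM in WT and 5900 in Ythdf2 KO. Ndufa2, an accessory subunit, was at 344 and 358 CPM, a ratio of 1.04. Ndufa13 was at 313 and 359 (1.15, 1.12 to 1.17). The ratios farthest from 1 in this complex were those of Ndufb8, at 208 and 259 CPM (1.25, 1.21 to 1.28), and Ndufs8, which carries iron-sulphur clusters of the electron path, at 89.7 and 111 (1.23, 1.19 to 1.28). Ndufa3 alone lay below 1, at 0.98.

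Complex II has the fewest subunits, and 3 of its 4 genes had a ratio above 1. Sdhb, the iron-sulphur subunit, was at 114 and 126 CPM (1.11), and the membrane anchors Sdhc at 66.5 and 71.9 (1.08) and Sdhd at 55.5 and 64.1 (1.15). Sdha, the flavoprotein that oxidises succinate, lay the other way at 41.8 and 39.0 (0.93, 0.88 to 0.99). In complex III all 8 nuclear genes had a ratio above 1 (median 0.14). Uqcrh, the hinge protein, was at 477 and 515 CPM (1.08) and Uqcrq at 444 and 475 (1.07). The core subunit Uqcrc2 was at 56.5 and 67.6 (1.20), and the Rieske iron-sulphur protein Uqcrfs1 at 97.1 and 113 (1.17).

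Complex IV held both extremes. Of its 17 nuclear genes tested, 13 had a ratio above 1 (median 0.15). Cox4i1 was at 923 and 1039 CPM (1.13) and Cox8a at 930 and 1015 (1.09). Ndufa4, once assigned to complex I and now known as a subunit of complex IV (chr6:11900292-11907497, GRCm38), had the highest ratio of all nuclear genes tested, at 254 and 334 CPM (1.32, 1.29 to 1.35). Cox4i2, the isoform of subunit 4 known to be induced by low oxygen (chr2:152754173-152765037), had the lowest, at 4.10 and 1.84 CPM from 238 and 93 UMIs (0.449, 0.350 to 0.573). Of complex V, 14 of 17 genes had a ratio above 1 (median 0.20). Atp5e was at 794 and 824 CPM (1.04), Atp5l at 700 and 760 (1.09), the rotor subunit Atp5c1 at 221 and 266 (1.20) and Atp5g1, which encodes the membrane ring, at 272 and 327 (1.20). Atp5k lay below 1 at 306 and 284 (0.928). Atp5g1, Atp5g2 and Atp5g3 encode the same mature protein, and several members have processed pseudogenes, so reads that fit more than 1 copy leave their counts uncertain.

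**Figure D2:**
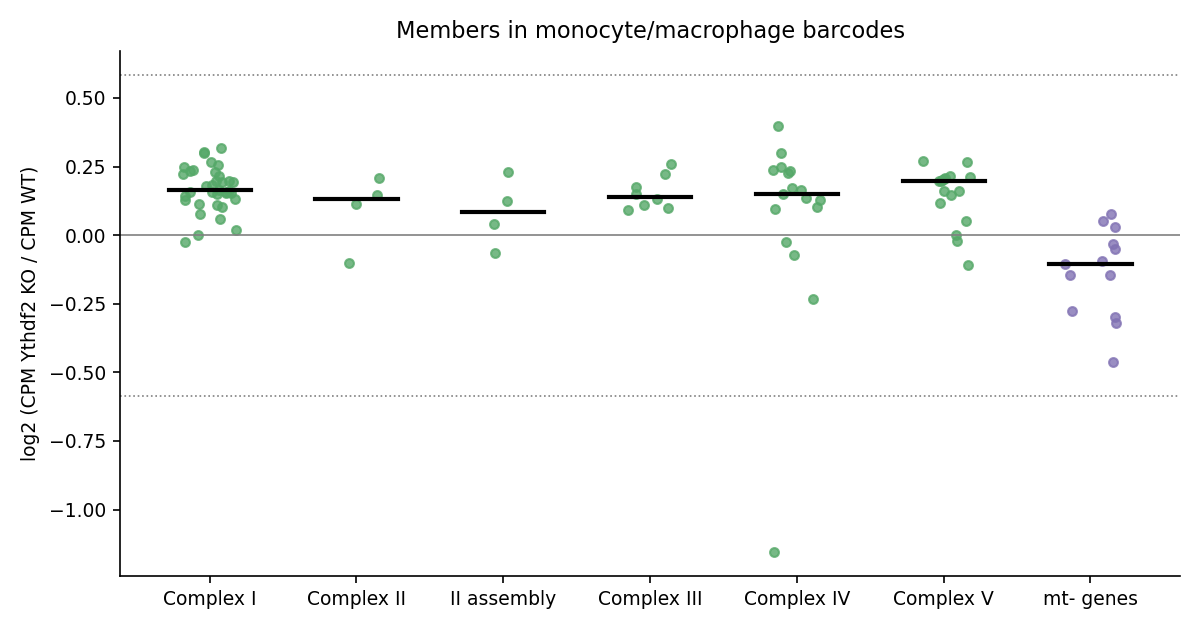
Ratio of the Ythdf2 KO to the WT level (log2, y axis) of each gene tested in monocytes and macrophages, by complex, with nuclear genes in green and mitochondrial genes in purple; points are genes spread sideways at random, black lines the medians and dotted lines 1.5-fold. Most nuclear genes lie above 0 and most mitochondrial genes below it, and Cox4i2 alone is past the dotted lines.

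Of the 13 mitochondrial genes in these barcodes, 10 had a ratio below 1, not far above the 58.6% of all genes that did. The median log2 ratio was -0.10, and it ran from -0.14 to -0.06 over the alternative filters, scalings and gates. The counting interval lay below 1 for 9, above 1 for 3 and held 1 for 1. None was past 1.5-fold. Among complex I subunits, mt-Nd1 was at 565 CPM in WT and 529 in Ythdf2 KO, mt-Nd2 at 312 and 306, mt-Nd3 at 119 and 107, and mt-Nd4 at 572 and 552. mt-Nd4l was at 62.7 and 50.3, mt-Nd5 at 153 and 126 and mt-Nd6 at 18.5 and 15.0, and these 3 genes with mt-Atp8 had the lowest ratios. The complex IV core subunits were at 3938 and 3559 (mt-Co1), 2616 and 2714 (mt-Co2) and 3133 and 2915 (mt-Co3). mt-Cytb, the cytochrome b of complex III, was at 897 and 945, and mt-Atp6, the proton channel subunit of complex V, at 2442 and 2495. mt-Atp8 had the lowest ratio, at 30.4 and 22.1 (0.725, 0.672 to 0.782). Neighbouring mitochondrial genes overlap on the genome: mt-Atp8 (chrM:7766-7969) with mt-Atp6 (chrM:7927-8607), mt-Nd4l (chrM:9877-10173) with mt-Nd4 (chrM:10167-11544), and mt-Nd5 (chrM:11742-13565) with mt-Nd6 on the other strand (chrM:13552-14070). mt-Atp6 and mt-Nd4, partners in these pairs, had ratios of 1.02 and 0.966. The part of the overlaps in the values was not tested.

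Sub-gates differed in size between the libraries. Monocytes numbered 4337 and 3445 barcodes in WT and Ythdf2 KO, patrolling monocytes 225 and 782, macrophages with C1q genes but no Arg1 UMI 3419 and 2778, and those with an Arg1 UMI 2193 and 755. The nuclear genes were on balance higher in Ythdf2 KO within each. In monocytes 77 of 85 genes had a ratio above 1 (all genes, 50.4%; median 0.21), and in patrolling monocytes 69 of 81 (all genes, 48.2%; median 0.15). In macrophages without Arg1 73 of 85 did (all genes, 39.5%; median 0.14), and in those with Arg1 73 of 84 (all genes, 42.9%; median 0.13). Of 81 nuclear genes tested in all 4 sub-gates, 62 had a ratio above 1 in each, where 16.4% of 8064 genes did. Of the 13 mitochondrial genes, 10 lay below 1 in each, where 22.9% of all genes did. By complex, 30 of 36 nuclear genes of complex I, 6 of 8 of complex III, 10 of 13 of complex IV and 13 of 17 of complex V were above 1 in all 4.

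The ribosomal proteins did not follow the nuclear genes in every sub-gate. Their median log2 ratio was 0.02 in monocytes and 0.00 in patrolling monocytes, where the nuclear genes had 0.21 and 0.15. In macrophages it was 0.17 without and 0.12 with Arg1, as far from 0 as the nuclear genes. The mitochondrial median was -0.16 in monocytes, -0.27 in patrolling monocytes, -0.07 and -0.11 in the macrophages. In patrolling monocytes mt-Atp8 was at least 1.5-fold lower (all genes, 4.65%), from 80 UMIs in WT and 154 in Ythdf2 KO (ratio 0.517, 0.392 to 0.686). Whether the sub-gates differ from each other was not tested.

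**Figure D3:**
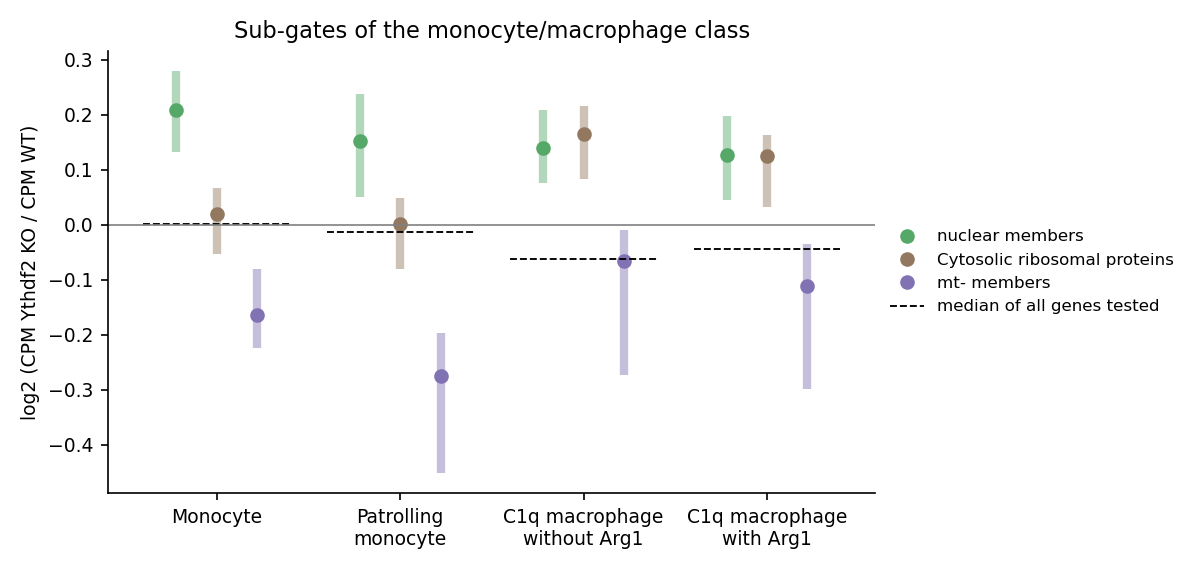
Ratio of the Ythdf2 KO to the WT level (log2, y axis) in 4 sub-gates of monocytes and macrophages; points are medians over the nuclear genes (green), cytosolic ribosomal proteins (brown) and mitochondrial genes (purple), bars the middle 50% of genes, and dashes the median of all genes tested. The nuclear medians run from 0.13 to 0.21, and the ribosomal medians lie at 0.02 and 0.00 in monocytes and patrolling monocytes.

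The nuclear sum was higher in the Ythdf2 KO library in each of 5 depth classes. In monocytes and macrophages of 500 to 2000 UMIs the nuclear genes summed to 14591 CPM in WT and 17291 in Ythdf2 KO, in those of 4000 to 8000 UMIs to 19703 and 21903, and in those of 16000 UMIs or more to 19602 and 21695. The mitochondrial sum was higher in WT in 4 of 5 depth classes, with 24148 and 23165 CPM in the shallowest, and the other way in barcodes of 2000 to 4000 UMIs (16540 and 16703). By promoter motif, the median log2 ratio was 0.16 over 19 genes with the NRF1 motif and 0.16 over 51 without it, 0.13 over 5 with the ETS motif and 0.16 over 65 without, and 0.16 over 7 with the YY1 motif and 0.16 over 63 without. It was 0.16 and 0.18 for genes with and without any of the 3 motifs, and no test of these differences was made.

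Other mitochondrial gene lists were set beside these in monocytes and macrophages, where 41.4% of all genes tested had a ratio above 1. Of the mitochondrial ribosome, which translates the 13 mitochondrial mRNAs, 73 of 78 genes had a ratio above 1 (median 0.14), with Mrps28 at 1.31 and Mrps27 at 1.25. Of the TCA cycle, which feeds electrons into complexes I and II, 14 of 16 did (median 0.17), with Fh1, fumarase, at 15.5 and 20.7 CPM (1.34) and Suclg1 at 1.27. Assembly factors were split (22 of 37, median 0.04). Among them Ndufaf1 had a ratio of 1.21, and Sco1, a copper chaperone of complex IV, was at 13.3 and 8.98 CPM (0.674). Electron carriers and their enzymes had a median of 0.01 (7 of 13 above 1). Regulators of mitochondrial transcription and biogenesis had -0.05 (7 of 18 above 1), close to the share of all genes above 1. Among these, Ppargc1b, a coactivator of mitochondrial genes, was at 0.796 and Mterf1a at 0.754. Mitophagy genes had -0.10 (1 of 6 above 1), with Bnip3, a receptor known to be induced by low oxygen, at 169 and 118 CPM (0.699) and Phb2 at 1.17. In all 4 sub-gates, 42 of 76 mitochondrial ribosome genes and 9 of 16 TCA cycle genes were above 1, and 0 of 11 regulators of transcription and biogenesis. Of all genes tested in the 4, 16.4% were above 1 in each, and of the cytosolic ribosomal proteins 37 of 84.

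NK cells showed no shared direction of the nuclear genes between the libraries, and a lower level of the mitochondrial ones in Ythdf2 KO. The nuclear genes summed to 23974 CPM in WT and 23788 in Ythdf2 KO (ratio 0.992), 44 of 83 had a ratio above 1 (all genes, 42.6%), and the median was 0.01. The mitochondrial genes summed to 15678 and 14146 CPM (ratio 0.902, 0.897 to 0.907), and all 13 had a ratio below 1, where 57.4% of all genes did. The median was -0.20. mt-Atp8 was the only member past 1.5-fold (all genes lower by as much, 2.82%), at 35.9 and 23.1 CPM (0.643, 0.562 to 0.735), and mt-Cytb the nearest to 1 at 0.954. It was no longer past 1.5-fold without cycling barcodes, with barcodes of 3000 to 8000 or of at most 8000 UMIs, with at least 4 own markers, or with no exclusion marker tolerated. The ratios of mt-Nd6, mt-Nd4l and mt-Nd5 were 0.706, 0.756 and 0.771. The mitochondrial share per barcode had a median of 1.41% in WT and 1.30% in Ythdf2 KO.

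Granzyme-rich NK cells, with UMIs of at least 2 of the 5 genes Gzmc to Gzmg, numbered 1496 in WT and 734 in Ythdf2 KO. Against granzyme-low NK cells 4 of 36 nuclear complex I genes were at least 1.5-fold higher in both libraries, close to the share of all genes (10.5%). These were Ndufa12 (1.92-fold and 1.87-fold), Ndufv1, the NADH-binding subunit (1.80-fold and 1.67-fold), Ndufa10 (1.55-fold and 1.75-fold) and Ndufc1 (1.55-fold and 1.61-fold). Ndufv1 had only 20 and 21 UMIs in granzyme-low cells. Ndufa4 was lower (all genes, 13.4%), at 274 against 485 CPM in WT and 250 against 477 in Ythdf2 KO, and so was mt-Nd6. Granzyme-rich barcodes were deeper, with medians of 12371 against 3386 UMIs in WT and 12690 against 3490.5 in Ythdf2 KO. More of them were cycling, 26.9% against 3.36% in WT and 28.2% against 1.88% in Ythdf2 KO. The part of depth and cycling in these differences was not tested. In T cells the nuclear genes were on balance higher in the Ythdf2 KO library, with 65 of 80 ratios above 1 (all genes, 49.1%), a median of 0.11 and a ratio of the sums of 1.07 (1.06 to 1.08). The ribosomal proteins had a median of 0.00 there, and the mitochondrial sum a ratio of 0.997. Cycling barcodes, with UMIs of at least 3 of 10 mitotic genes, held 16.6% of the T cell UMIs in WT and 24.8% in Ythdf2 KO, and without them the nuclear median was 0.05. The mitochondrial sum was 14913 CPM in WT and 18351 in Ythdf2 KO in cycling T cells, and 16623 and 15607 in the others. No gene of either genome was past 1.5-fold in T cells, where 8.33% of all genes were. Within T cells the nuclear median was 0.13 in CD8 T cells, 0.05 in gamma-delta T cells and 0.04 in the remaining ones.

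Cycling barcodes had a higher nuclear sum than the others in each class where they could be compared. In NK cells it was 25244 against 23408 CPM in WT and 24552 against 23444 in Ythdf2 KO. In T cells it was 24758 against 21417 and 27407 against 22194, and in monocytes and macrophages 21836 against 19358 and 25085 against 21351. Cycling barcodes were also deeper: in WT their median was 10073.5 UMIs against 3751 for all T cells, and 11811 against 4748.5 for all monocytes and macrophages. WT T cells of 8000 to 16000 UMIs, cycling or not, had a nuclear sum of 24408 CPM. The part of depth in the difference between cycling and other barcodes was not tested. Past 1.5-fold in both libraries were 8 nuclear and 5 mitochondrial genes in monocytes and macrophages (all genes, 21.1%), 3 nuclear genes in T cells (all genes, 9.19%) and none in NK cells (all genes, 7.35%). Atp5b was 1.80 and 1.75 times as high and mt-Nd1 1.74 and 2.19 times as high in cycling monocytes and macrophages.

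Plasmacytoid DCs, which make type I interferon, held a complex IV isoform that was close to absent in the other classes compared. Cox6a2, known as the heart and skeletal muscle isoform of subunit 6A (chr7:128205435-128206387), was at 567 CPM in WT and 1419 in Ythdf2 KO plasmacytoid DCs, against 2.07 and 2.44 CPM in monocytes and macrophages, a fold of 274 and 582. Over all barcodes it had 646 UMIs in WT and 1628 in Ythdf2 KO. Of these, 158 and 714 were in plasmacytoid DCs and 137 and 159 in the other 7 classes, and the rest were in barcodes outside the classes compared. A UMI of Cox6a2 was found in 30 of 60 WT plasmacytoid DCs (50%, exact binomial interval 36.8% to 63.2%) and in 82 of 97 Ythdf2 KO ones (84.5%, 75.8% to 91.1%), at median depths of 4831.5 and 4880 UMIs. In the other classes the share was at most 2.70%, in WT cDC2, and it was 0 of 123 and 2 of 299 in B cells at median depths of 2009 and 1958 UMIs. After each barcode was thinned to 1000 UMIs the shares were 28.8% and 59.8%. Cox6a1, the isoform found in most tissues, was at 255 and 316 CPM in plasmacytoid DCs and was detected in every class.

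Between the libraries, Cox6a2 was 2.50 times as high in Ythdf2 KO plasmacytoid DCs (2.11 to 2.99; 158 and 714 UMIs). Of 72 nuclear genes tested there, 57 had a ratio above 1 (all genes, 52.7%), the median was 0.21, and 10 were at least 1.5-fold higher, where 8.05% of all genes were. Among these, Ndufab1, the mitochondrial acyl carrier protein, was at 64.6 and 139 CPM (2.16, 1.27 to 3.85) and Ndufb2 at 71.7 and 153 (2.13, 1.29 to 3.69). The mitochondrial genes had a median of 0.07. A single cycling barcode of 15007 UMIs held 5.38% of the UMIs of WT plasmacytoid DCs, and another of 40146 UMIs held 7.98% in Ythdf2 KO. The mitochondrial limit of 10% had removed 8 of 68 plasmacytoid DC barcodes in WT and 11 of 108 in Ythdf2 KO. Malat1 had a ratio of 0.658 in this class, and its part in the result was not tested.

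**Figure D4:**
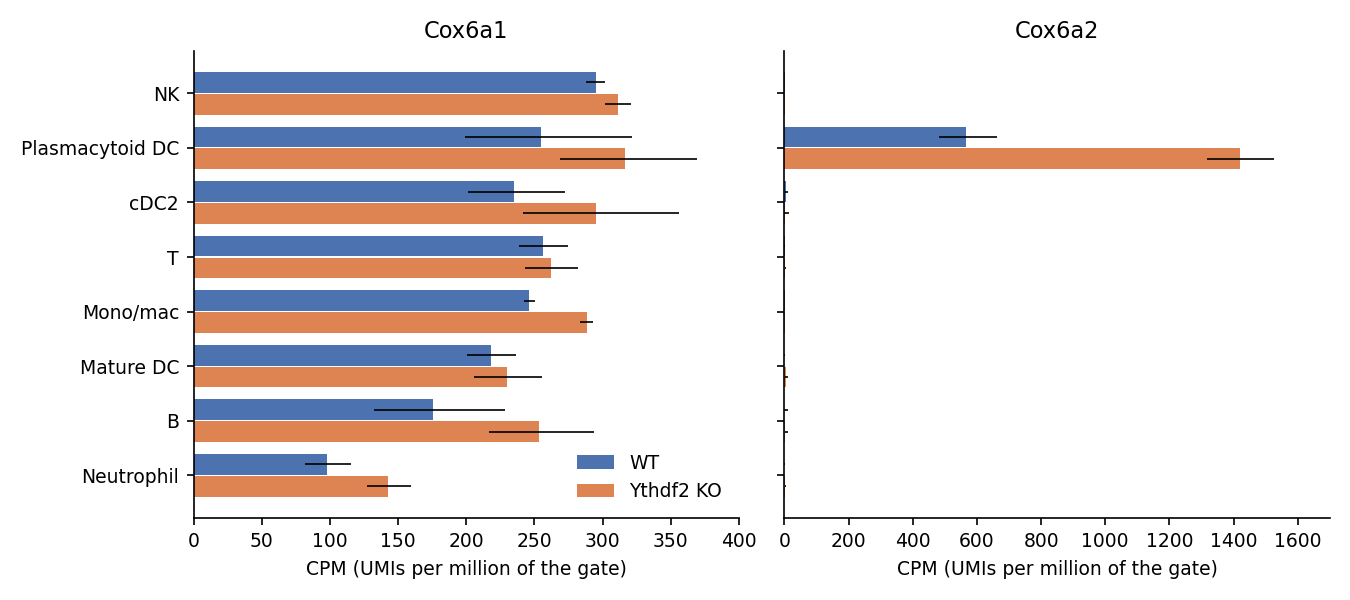
Level of Cox6a1 (left) and Cox6a2 (right) in CPM (x axis) in 8 gated classes, with WT in blue and Ythdf2 KO in orange; bars are summed counts of 1 library and lines exact Poisson 95% intervals. Cox6a1 is found in all classes, while Cox6a2 stands at 567 and 1419 CPM in plasmacytoid DCs and near 0 in the rest.

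Among the classes compared, Cox4i2, a tissue-restricted isoform of subunit 4, was found mainly in monocytes and macrophages. It had 238 and 93 UMIs in monocytes and macrophages, 3 UMIs in WT NK cells and at most 1 in each other class and library. Over all barcodes it had 388 UMIs in WT and 171 in Ythdf2 KO, and the rest were in barcodes outside the classes compared. The 0 UMIs in T cells allow levels of up to 0.955 CPM in WT and 1.11 in Ythdf2 KO. The limits were 9.58 and 4.34 CPM in B cells, 4.10 and 8.27 in cDC2, and 10.8 and 5.96 in plasmacytoid DCs. These are close to or above the 4.10 and 1.84 CPM of monocytes and macrophages, so the 0 UMIs there cannot show a lower level. Within macrophages with C1q genes, Cox4i2 was higher in those with an Arg1 UMI, at 7.73 against 2.77 CPM in WT and 4.25 against 2.17 in Ythdf2 KO, folds of 2.79 and 1.96, where 1.19% of all genes were at least 1.5-fold higher in both libraries. Cox7a1, the muscle isoform of subunit 7A (chr7:30184144-30186078), was 1.63 and 1.74 times as high there. Arg1 encodes arginase and marks a state of tumour macrophages. Between the libraries, Cox4i2 had a ratio of 0.356 (0.201 to 0.601) in monocytes, where 3.89% of all genes were at least 1.5-fold lower. It had 0.550 (0.344 to 0.848) in macrophages with Arg1 (all genes, 4.95%), and in those without Arg1 a ratio of 0.783 whose interval held 1 (0.503 to 1.21). Cox7a1 had ratios from 0.917 to 1.04 in the 4 sub-gates, against 0.851 in the class as a whole. Ndufa4l2, a paralogue of Ndufa4 (chr10:127514967-127517154), had 38 and 37 UMIs in monocytes and macrophages and 1 in each library in the other classes compared. Over all barcodes it had 73 and 61 UMIs, and the rest were in barcodes outside these classes. Its level in monocytes and macrophages was only 0.655 and 0.734 CPM. The limits beside 0 UMIs were 0.126 and 0.235 CPM in NK cells, but 0.955 and 1.11 in T cells. Limits in the other classes without a UMI were higher still, so outside NK cells the 0 UMIs cannot show a lower level. Cox8b and Cox8c had no UMI in either library.

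Neutrophils and mature DCs had the highest Ythdf2 KO to WT ratios of the mitochondrial genes, and a few deep barcodes carried much of them. In neutrophils all 13 mitochondrial genes had a ratio above 1 (all genes, 58.9%). Their median was 0.64 and that of all genes 0.11. At least 1.5-fold higher were 7 mitochondrial and 23 of 76 nuclear genes, where 17.1% of all genes were. mt-Nd1 was at 467 and 910 CPM (1.95) and Atp5b at 112 and 178 (1.60). Ribosomal proteins had a median of 0.49. Of 1000 Ythdf2 KO neutrophil barcodes, 5 were cycling, with a median of 31063 UMIs, and these 5 held 8.14% of the UMIs of the class, 26.0% of its nuclear and 25.6% of its mitochondrial oxidative phosphorylation UMIs. The share per barcode had medians of 0.637% in WT and 0.635% in Ythdf2 KO for the nuclear genes and 0.302% and 0.413% for the mitochondrial ones. Without cycling barcodes the nuclear median log2 ratio was -0.03 and the mitochondrial one 0.32, and 3 nuclear genes and 1 mitochondrial gene were past 1.5-fold.

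In mature DCs all 12 mitochondrial genes tested had a ratio above 1 (all genes, 54.5%), with a median log2 ratio of 0.73, and 9 were at least 1.5-fold higher in Ythdf2 KO, where 11.5% of all genes were. mt-Nd1 was at 257 and 463 CPM (1.81). Ndufa4, at 142 and 256 CPM (1.80, 1.56 to 2.08), had the highest ratio of the 5 nuclear genes past 1.5-fold. Of 264 Ythdf2 KO barcodes 4 were cycling, and they held 11.2% of the UMIs and 38.3% of the mitochondrial oxidative phosphorylation UMIs. Without cycling barcodes the medians were 0.02 (nuclear) and 0.07 (mitochondrial), and 0 genes were past 1.5-fold. The share per barcode had medians of 0.312% and 0.376% for the mitochondrial genes. In B cells 4 nuclear genes were at least 1.5-fold higher (all genes, 7.1%), with medians of 0.14 (nuclear) and 0.09 (mitochondrial), and in cDC2 the medians were 0.04 and -0.04. In cDC2 2 nuclear genes and 1 mitochondrial gene were past 1.5-fold in either direction (all genes, 12.6%): Ndufa5 (71 and 21 UMIs, ratio 0.597), Ndufs4 (54 and 43 UMIs, 1.61) and mt-Nd4l (44 and 8 UMIs, 0.367).

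**Figure D5:**
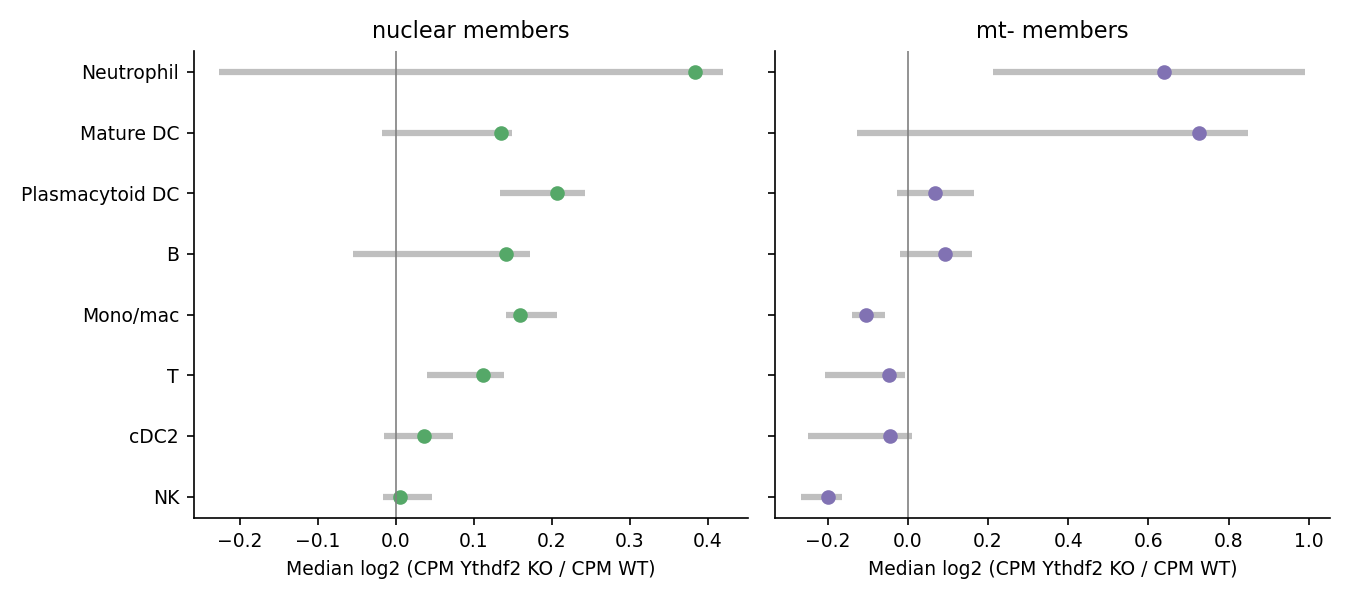
Median log2 ratio of the Ythdf2 KO to the WT level (x axis) over the nuclear genes (left) and the mitochondrial genes (right) in 8 classes; points are the values as reported and grey bars span the alternative filters, scalings and gates. The bars of monocytes and macrophages, T cells and plasmacytoid DCs stay above 0 for the nuclear genes, while those of neutrophils (-0.23 to 0.42), mature DCs, B cells, cDC2 and NK cells span it.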

How the data were processed

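Single-cell libraries of CD45+ cells from 1 WT and 1 Ythdf2 KO sample were used as deposited: UMI counts per gene and barcode, not normalized by the authors. Per the submitters' processing notes, reads were handled with Seurat 4.0.4 and Cell Ranger 5.0.1 on build mm10, while per the file headers Cell Ranger was version 6.1.1, a conflict that was not settled. The labels' protocols name a 10x 5′ kit. The end of the transcript that the UMIs come from was not settled.

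Kept barcodes had at least 200 genes, at least 500 UMIs and a mitochondrial share of at most 10% (418 WT and 417 Ythdf2 KO barcodes were over the limit). A cell type needed UMIs of at least 3 of its own marker genes and at most 1 exclusion marker of each other lineage; 133 and 115 barcodes passed more than 1 gate and 5522 and 4184 none. DC gates used a shorter list of monocyte/macrophage exclusion markers and took precedence over that class. Doublets were limited by the exclusion markers; Scrublet's automatic threshold marked 0.0245% and 11.5% of barcodes, so removal of the 8% highest scores was an alternative only. Gates count markers, so deeper barcodes pass more easily.

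Counts were summed per library and class and scaled to CPM. Genes with at least 50 UMIs over both libraries were tested, in the sense of being counted; with 1 library per genotype there is no p-value. Ratios carry exact conditional binomial 95% intervals and levels exact Poisson ones. A difference of at least 1.5-fold was called. On simulated counts of monocytes and macrophages the interval held the true ratio for 95.6% of 12335 unchanged genes. Of these 0.924% passed 1.5-fold, against 98.0% of 50 genes doubled and 4.0% of 50 raised 1.25-fold. The counts were Poisson draws, the model behind the interval, without spread between animals, libraries or cells. They check the computation only and give no rate of false calls for the real libraries. Limits beside 0 UMIs are 3 counts of the class total.

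Named genes were, per complex, the 2 highest and the 2 with ratios farthest from 1 in monocytes and macrophages, all mitochondrial genes, isoform pairs, genes past 1.5-fold in a class and genes at 5 times the median of other classes; names in comparisons of classes were chosen after their values were seen. The members, gene lists, markers and tests were chosen with earlier results of these data known. Gene positions follow GENCODE M21 (GRCm38). The work was done in Python 3.11.15 with scipy 1.17.1, numpy 2.4.6, scanpy 1.11.5, pandas 2.3.3 and matplotlib 3.10.9. A gate for tumour or stromal cells, mast cells and type 1 DCs held under 50 barcodes in a library, and these were not compared.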

Additional observations from a re-analysis of the deposited data

Results flagged for a closer look

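In the values as reported, the mitochondrial genes differed in direction between classes. Their median log2 ratio of Ythdf2 KO to WT was -0.20 in NK cells, where all 13 lay below 0, and 0.64 in neutrophils and 0.73 in mature DCs, where all 13 and all 12 tested lay above 0. The difference between the classes was not tested. Values without the deep cycling barcodes stand beside the results above and below.

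Signal was also found in a gate that entered no comparison. Barcodes with markers of tumour or stromal cells numbered 44 in the Ythdf2 KO library and 2 in WT, too few to compare. In the Ythdf2 KO library 100% of them had a UMI of Rhox5, 95.5% of Sparc and 88.6% of Col3a1, and 0% of the epithelial keratins Krt8 and Krt18. The nuclear oxidative phosphorylation genes took 3.08% of their UMIs and the mitochondrial genes 3.72%, both above every leukocyte class compared in that library. These 44 barcodes had a median of 22033 UMIs, and 59.1% were cycling. The highest values among the leukocyte classes compared there were 9299 UMIs and 19.2%, both in NK cells. The part of depth and cycling in the higher shares was not tested.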

How the results depend on the processing

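No paired analysis was possible because each genotype is 1 library, and for the same reason no replicate could be left out. All values here are median log2 ratios of Ythdf2 KO to WT unless a gene is named. Of 514 values of class-level results under an alternative, 413 stayed within the interval or the 1.5-fold margin of the value as reported, 94 moved outside it, and 7 were medians clear of 0 that changed sign. Counting medians near 0 as well, 14 lay on the other side of 0: besides neutrophils, mature DCs and the nuclear median of B cells, these were the mitochondrial median of B cells (2 alternatives) and of plasmacytoid DCs (1), both medians of cDC2 (2 nuclear and 1 mitochondrial) and the nuclear median of NK cells (1). Over 17 alternatives the monocyte and macrophage median stayed between 0.14 and 0.21 for nuclear genes and between -0.14 and -0.06 for mitochondrial ones, and the mitochondrial median of NK cells between -0.27 and -0.16. Over 14 alternatives the nuclear median of plasmacytoid DCs stayed between 0.13 and 0.24, and Cox6a2 there between 0.89 and 1.42. Where values moved, the cause was not tested unless the setting itself removes barcodes or genes. Of 746 alternatives for single genes, 144 moved and 9 changed the sign of a gene past 1.5-fold, Atp5b in neutrophils (5) and mt-Nd1 in mature DCs (4). Among genes under 1.5-fold in monocytes and macrophages, mt-Nd2 was above 0 in 3 alternatives and Cox7a1 in 1. Where depth leaves few UMIs per gene the counting intervals are wide, as the Ndufab1 and Ndufb2 intervals in plasmacytoid DCs show.

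With barcodes of 3000 to 8000 UMIs, the nuclear median was 0.14 in monocytes and macrophages, 0.046 in NK cells, 0.040 in T cells, -0.23 in neutrophils and 0.028 in mature DCs, the mitochondrial median of mature DCs was -0.044, Atp5b in neutrophils -0.65 and mt-Nd1 in mature DCs -0.33. With at most 8000 UMIs, a setting chosen after seeing the data, the nuclear median was 0.046 in NK cells, 0.057 in T cells, -0.064 in neutrophils, 0.074 in B cells and 0.041 in mature DCs, the mitochondrial one 0.28 in neutrophils and 0.082 in mature DCs, Atp5b in neutrophils -0.33 and mt-Nd1 in mature DCs -0.14. Without cycling barcodes, the nuclear median was 0.053 in T cells, -0.026 in neutrophils and 0.017 in mature DCs, the mitochondrial one 0.32 and 0.070 in the latter classes, Atp5b in neutrophils -0.17 and mt-Nd1 in mature DCs -0.061. As a mean over barcodes, the nuclear median was 0.036 in neutrophils, 0.062 in B cells and 0.0046 in mature DCs, the mitochondrial one 0.21, -0.019 and 0.28, and Atp5b in neutrophils -0.14.

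With no exclusion marker tolerated, the nuclear median was 0.041 in NK cells, 0.14 in T cells and 0.022 in neutrophils, the mitochondrial one -0.21 in T cells and 0.054 in macrophages with Arg1, and Atp5b in neutrophils -0.13. With exclusion markers ignored, the nuclear median was 0.20 in neutrophils and 0.063 in B cells, and the mitochondrial one -0.18 in T cells, -0.25 in cDC2 and 0.14 in mature DCs. With at least 4 own markers, the nuclear median was 0.080 in B cells and -0.018 in mature DCs, the mitochondrial median of mature DCs -0.13 and mt-Nd1 there -0.34. The nuclear median of neutrophils was 0.21 with at most 5% mitochondrial UMIs, and their mitochondrial median 0.99 with no such limit. With a minimum of 500 UMIs per gene the nuclear median was 0.16 in neutrophils and -0.055 in B cells. Centring on the median of all genes gave 0.21 in monocytes and macrophages and 0.040 in NK cells, and leaving mitochondrial and ribosomal genes out of the total gave -0.016 in NK cells. As reported, 8 pairs of classes were set apart for nuclear and 10 for mitochondrial genes. With no exclusion marker tolerated, and with barcodes of 3000 to 8000 UMIs, 4 pairs of classes were set apart for nuclear and 4 for mitochondrial genes, out of 10 that could be compared. The highest counts were 10 nuclear pairs, with at most 5% mitochondrial UMIs, and 15 mitochondrial pairs, as a mean over barcodes or without cycling barcodes. Under 50 barcodes remained, and no value was computed, for B cells, cDC2 and plasmacytoid DCs in these 2 settings, for CD8 T cells with no exclusion marker tolerated, and for cDC2 with 4 own markers or at most 8000 UMIs.

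Counts of genes past 1.5-fold in either direction moved as follows. In neutrophils the 23 nuclear genes became 3 without cycling barcodes, with at most 8000 UMIs or with no exclusion marker tolerated, 7 as a mean over barcodes, 9 at 3000 to 8000 UMIs, 11 with at most 5% mitochondrial UMIs, 13 with exclusion markers ignored and 1 with a minimum of 500 UMIs per gene. The 7 mitochondrial genes became 12 with no mitochondrial limit and 1 without cycling barcodes, with at most 8000 UMIs or as a mean over barcodes. In mature DCs the 5 nuclear and 9 mitochondrial genes became 0 and 0 without cycling barcodes, with 4 own markers or with exclusion markers ignored, 1 and 1 at 3000 to 8000 UMIs, 1 and 0 with at most 8000 UMIs, and 2 and 1 as a mean over barcodes, and the nuclear count was 3 with no exclusion marker tolerated and 2 with a minimum of 500 UMIs. In B cells the 4 nuclear genes became 7 without the 8% highest Scrublet scores, 0 with a minimum of 500 UMIs, and 2 with at most 5% mitochondrial UMIs, with exclusion markers ignored, without cycling barcodes or with at most 8000 UMIs. In cDC2 the 2 nuclear genes became 4 with a minimum of 10 UMIs, 1 with exclusion markers ignored and 0 with a minimum of 500, and the mitochondrial gene was lost in the last 2 settings (0). In NK cells mt-Atp8 was lost (0) with 4 own markers, with no exclusion marker tolerated, at 3000 to 8000 or at most 8000 UMIs and without cycling barcodes, and the nuclear count of 0 became 2 as a mean over barcodes and 1 with ribosomal and mitochondrial genes left out of the total, with at most 5% mitochondrial UMIs, with 4 own markers or with a minimum of 10 UMIs. In T cells the nuclear count of 0 became 1 at 3000 to 8000 UMIs and 2 with a minimum of 10, and the mitochondrial one 1 with exclusion markers ignored. In monocytes and macrophages the nuclear count of 1 became 2 at 3000 to 8000 UMIs or with sub-gates weighted by their WT shares, and 0 with a minimum of 500 UMIs. In plasmacytoid DCs the nuclear count of 10 became 1 with a minimum of 500 UMIs.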
